A study of Rattus norvegicus with 16 samples.

Results

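The genes described here are those that copy DNA in S phase: enzymes of nucleotide supply, polymerases, the sliding clamp and its loader, strand processing factors, chromatin assembly factors and checkpoint genes of the replication fork. The set was given as 39 rat gene symbols and leaves out the MCM helicase and origin licensing genes. Each symbol was represented by its probe set with the highest mean log2 intensity over 16 arrays. Of the 39, 35 had a probe set with only that symbol, among 14217 genes tested in all. Gins2, Cdc7 and Dbf4 had no such probe set, and Rrm2 was covered only by 2 probe sets that also name another gene, so none of these 4 was analysed here.

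RNA came from pancreatic islets of male Wistar rats aged 8 weeks, cultured in medium with 8 mM glucose and 10% serum, and was hybridised to 1-colour arrays after biotin labelling. The groups were islets given AdNkx6.1, an adenovirus carrying the beta cell transcription factor Nkx6.1 (5 arrays), islets given Adβgal, the control adenovirus carrying β-galactosidase (6 arrays), and islets left untreated (5 arrays). Per the labels both viruses were added at about 2e+09 particles per ml for 18 h and RNA was taken at 48 h. The treatment text states 5 replicates a condition, whereas 6 Adβgal arrays were present and were used. Titles call the arrays biological replicates without naming animals or pools, so p-values measure the spread between these arrays. A whole islet holds beta, alpha and delta cells with some endothelial, stromal and immune cells, and the labels do not say which cells took up virus.

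DNA replication needs a supply of deoxynucleotides, a primase with polymerase alpha to start each strand, polymerases delta and epsilon to extend it, a ring-shaped clamp to hold them on DNA, and nucleases and a ligase to join the lagging strand fragments. Many of these genes are switched on together as a cell passes from G1 into S phase, largely through E2F transcription factors released from the retinoblastoma protein. Adult beta cells divide rarely, so in resting islets these transcripts come from few cycling cells together with a basal level in the others. In a whole islet extract, more cells of a cycling type and more RNA per cell cannot be told apart.

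Values are log2 of the deposited intensity, given as mean ± SD over the arrays of a group or as a log2 change ± standard error (SE) from limma. Adjusted p-values are from limma with the Benjamini-Hochberg method over all 14217 genes, 2-sided, with a threshold of 0.05. Levels of different genes are not compared, because each probe set has its own brightness. The array medians ran from 264.8 to 296.2 intensity units, and the median change of all genes was 0.02 for AdNkx6.1 against Adβgal, -0.01 for AdNkx6.1 against untreated and -0.04 for Adβgal against untreated. The 3 comparisons share arrays, so their results are not independent of each other.

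The insulin genes Ins1 and Ins2 and the glucagon gene Gcg were among the bright transcripts of every group, with mean log2 intensities of 14.69, 14.76 and 14.59 with AdNkx6.1, 14.72, 14.76 and 14.62 with Adβgal and 14.75, 14.82 and 14.61 untreated. The Nkx6-1 probe set itself was lower with AdNkx6.1 than with Adβgal, by -0.46 ± 0.10 (adjusted p = 0.0023). Whether that probe set covers the sequence carried by the virus is not given, so this value is no check of the labels. Within Adβgal, replicates 4, 5 and 6 stood apart in markers of other cells. The mean of 19 acinar markers, each set to 0 at its own mean over the 16 arrays, was 1.54, 1.0 and 1.1 on these, against -0.99 to 0.40 on replicates 1 to 3, and that of 24 macrophage and leukocyte markers was 0.36, 0.63 and 0.90, against -0.27 to -0.21.

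With AdNkx6.1, 24 of the 35 measured DNA synthesis genes were higher than with Adβgal and 0 were lower, while 16.6% of all genes tested were called higher and 8.48% lower. The median change of the 35 was 0.54, against 0.02 for all genes. Thymidine kinase Tk1 (3.59-fold), the fork protection gene Timeless (2.82-fold), the chromatin remodeller gene Hells (2.57-fold), Uhrf1 (2.38-fold), Pole (2.33-fold), Brca1 (2.17-fold) and Rpa2 (2.16-fold) rose at least 2-fold. At a minimum of 1.5-fold, 14 members rose, where 7.44% of all genes did. In 16 members the AdNkx6.1 arrays were all above the highest Adβgal array, a separation seen in 10.4% of all genes, and in 0 members they were all below the lowest, as in 3.78% of all genes. Without Adβgal replicates 4, 5 and 6 together, 26 members were higher and 0 lower, and 18% of all genes were higher.

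**Figure D1:**
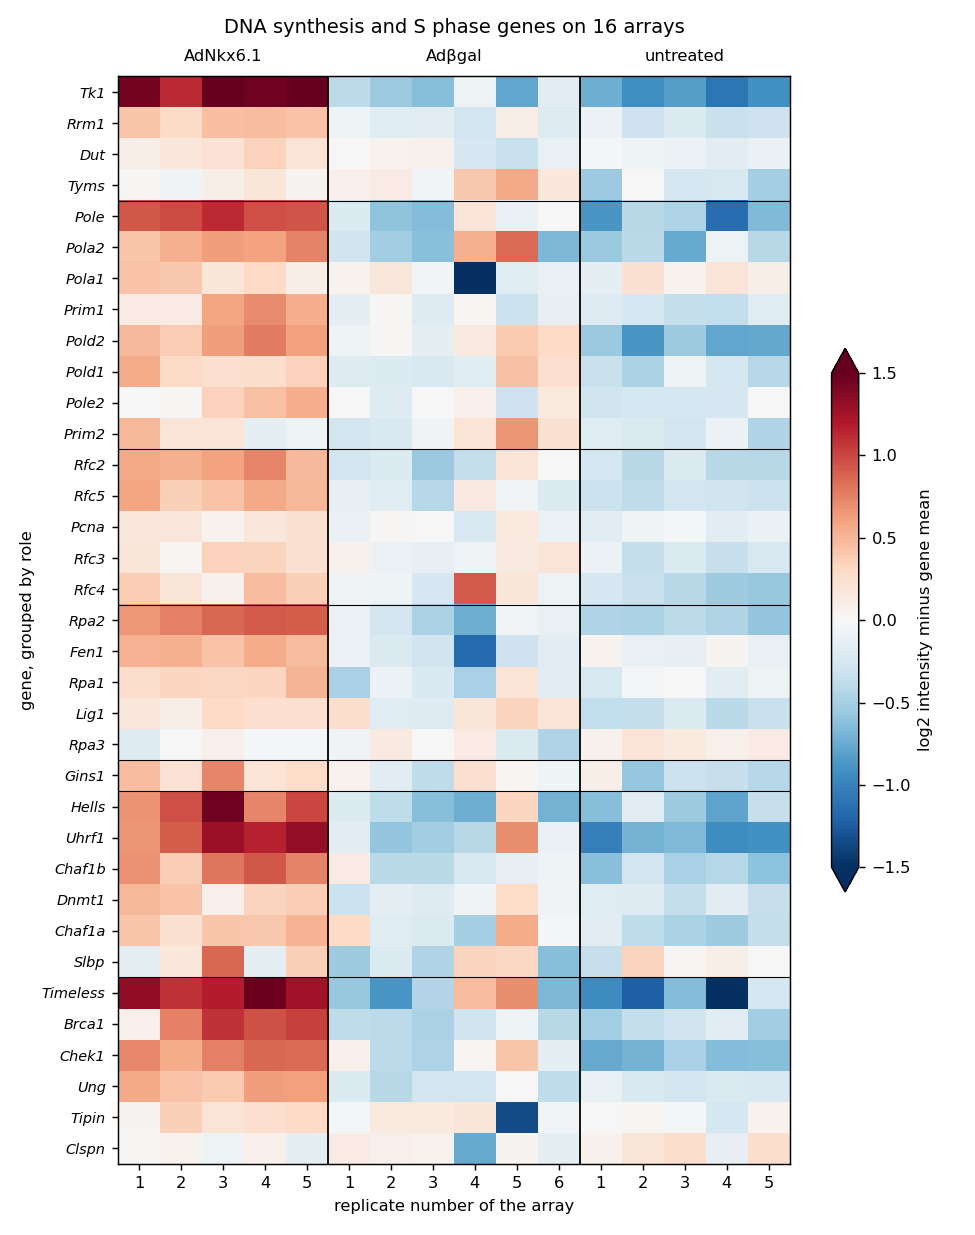
Log2 intensity of 35 genes (rows, grouped by role) on 16 arrays (columns, by group and replicate number), each gene set to 0 at its mean over the arrays; red is higher and blue lower, and colours end at 1.5 in either direction. The 5 AdNkx6.1 columns are red for most genes, and single Adβgal arrays break the pattern, such as replicate 4 for Pola1 and Fen1 and replicate 5 for Tipin.

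Against untreated islets, 29 of the 35 were higher with AdNkx6.1 and 0 were lower, where 16.9% of all genes were called higher and 13.8% lower. The median change was 0.69, against -0.01 for all genes, and 21 members rose at least 1.5-fold, where 8.6% of all genes did. In 28 members the 5 AdNkx6.1 arrays lay above all 5 untreated arrays, a separation found in 17.4% of all genes. The members with the highest changes were Tk1 (4.93-fold), Timeless (4.77-fold), Uhrf1 (3.77-fold) and Pole (3.25-fold). The 6 members that were not called were Pola1, Prim2, Rpa3, Clspn, Tipin and Slbp, and these 6 were called in no comparison of this fit. The fit shares its spread over the 3 groups, so the Adβgal arrays enter the SE of this comparison too. With only the 2 groups compared in the fit, Prim2 and Tipin were also called higher than untreated.

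Adβgal alone differed less from no virus: 6 of 35 members were higher and 0 lower, where 2.84% of all genes were called higher and 4.17% lower. The 6 were Pold2 (1.74-fold), Uhrf1 (1.58-fold), Chek1 (1.49-fold), Tyms (1.44-fold), Tk1 (1.37-fold) and Lig1 (1.35-fold). The median change was 0.18, against -0.04 for all genes, and 4 members had all Adβgal arrays above all untreated arrays, where 2.05% of all genes did. In 0 members they were all below, where 4.83% of all genes were. Without Adβgal replicates 4, 5 and 6 together only Pold2 of the 6 passed, at 0.63 with an adjusted p of 0.0054 in limma, the other 5 had changes of 0.30 to 0.42, and no other member was called. In that fit 1.72% of all genes were called higher. Those 3 arrays are the ones with higher acinar and leukocyte markers, whose part in the other 5 calls was not tested.

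**Figure D2:**
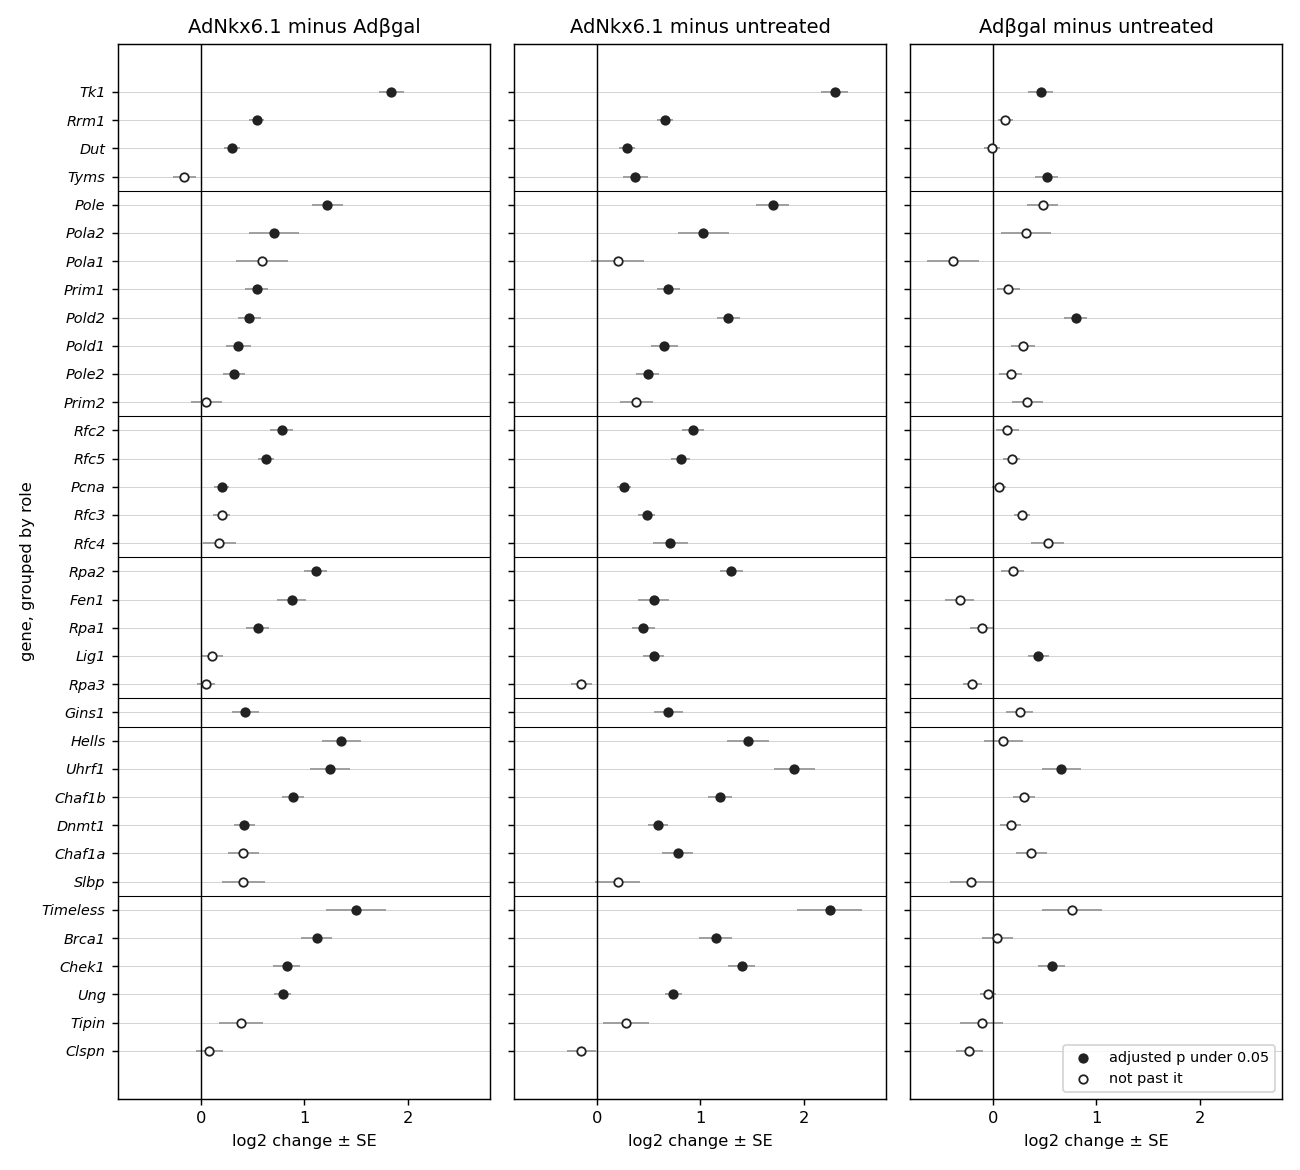
Log2 change ± SE of each of 35 genes (rows, grouped by role) for AdNkx6.1 minus Adβgal (left), AdNkx6.1 minus untreated (middle) and Adβgal minus untreated (right); filled points passed an adjusted p of 0.05. The filled points number 24, 29 and 6, and each lies right of 0.

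The order of the 3 group means was AdNkx6.1, then Adβgal, then untreated in 25 members. In 7 members (Pola1, Fen1, Rpa1, Dut, Tipin, Slbp and Ung) it was AdNkx6.1, then untreated, then Adβgal, and Adβgal was below untreated by 0.01 to 0.39. Rpa3 and Clspn had their highest mean untreated and their lowest with Adβgal, and Tyms had its highest with Adβgal. In none of the 9 members with their lowest mean in Adβgal did limma call Adβgal and untreated different at the adjusted threshold. Of the 35, 20 were called in both AdNkx6.1 comparisons and not in Adβgal against untreated, 4 were called in all 3 comparisons (Tk1, Pold2, Uhrf1 and Chek1), 3 were called only against untreated (Rfc3, Rfc4 and Chaf1a), and 2 were called in both comparisons with untreated islets (Tyms and Lig1). These orders and call patterns were not counted over all genes, so whether they are particular to the members was not tested.

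Nucleotide supply was measured by 4 genes, of which Tk1, Rrm1 and Dut rose with AdNkx6.1 against Adβgal and Tyms was not called. Tk1, which salvages thymidine and is made mainly in S phase, had log2 intensities of 10.37, 10.05, 10.49, 10.39 and 10.44 on the 5 AdNkx6.1 arrays. With Adβgal the lowest, median and highest values of Tk1 were 8.15, 8.47 and 8.86, and the untreated arrays had 8.20, 8.02, 8.11, 7.85 and 8.03. Every AdNkx6.1 array thus exceeded all 11 others, while the Adβgal and untreated ranges overlapped by 1 pair of arrays. The change was 1.84 ± 0.12 against Adβgal (adjusted p = 2.5e-08) and 2.30 ± 0.13 against untreated (adjusted p = 3.7e-09).

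The other probe sets of Tk1 were also higher with AdNkx6.1 than with Adβgal, by 1.61 ± 0.13 and 1.12 ± 0.31. The 0.46 ± 0.12 of Adβgal over untreated in Tk1 (adjusted p = 0.034) was no longer called when any 1 of Adβgal replicates 4 and 6 and untreated replicates 2, 3, 4 and 5 was left out (adjusted p of 0.052 to 0.095), and its adjusted p ran from 0.0046 to 0.12 over 26 alternatives.

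Rrm1, the large subunit of ribonucleotide reductase, which makes deoxynucleotides from ribonucleotides, was at 11 ± 0.07 with AdNkx6.1 against 10.46 ± 0.14 with Adβgal and 10.34 ± 0.10 untreated. It rose 1.46-fold over Adβgal (adjusted p = 5.4e-05) with no overlap of arrays. Dut, which removes dUTP so that uracil is not built into DNA, was at 13.17 ± 0.09 with AdNkx6.1, 12.87 ± 0.16 with Adβgal and 12.88 ± 0.06 untreated, and was called 1.24-fold higher over Adβgal (adjusted p = 0.0085). The dimmer probe set of Dut differed the other way, by -0.57 ± 0.32, at 6.69 ± 0.41 with AdNkx6.1 and 7.27 ± 0.84 with Adβgal, so the direction of Dut depends on the probe set. Its call over untreated (0.29, adjusted p = 0.012) was lost with the mean of the probe sets (0.20, adjusted p = 0.45) and with the more variable one (0.10, adjusted p = 0.86). Without Adβgal replicates 4, 5 and 6 the change of Dut was 0.17 (adjusted p = 0.061), and its adjusted p ran from 0.003 to 0.61 over the alternatives.

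Tyms, thymidylate synthase, which makes dTMP from dUMP, followed another course. It had 8.80, 8.72, 8.86, 8.96 and 8.82 with AdNkx6.1, a lowest, median and highest value of 8.73, 8.92 and 9.34 with Adβgal, and 8.23, 8.78, 8.51, 8.54 and 8.27 untreated. The AdNkx6.1 arrays overlapped the lower part of the Adβgal range, and the difference of -0.16 had a 95% interval of -0.40 to 0.09. Against untreated, Tyms was higher with AdNkx6.1 by 0.37 ± 0.12 (adjusted p = 0.029) and with Adβgal by 0.52 ± 0.11 (adjusted p = 0.013). The call of Tyms for AdNkx6.1 over untreated failed when AdNkx6.1 replicate 3, 4 or 5 or untreated replicate 1 or 5 was left out (adjusted p of 0.052 to 0.078), in a range of 0.0041 to 0.1 over the alternatives.

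Of 8 polymerase and primase genes, 6 rose with AdNkx6.1 against Adβgal. Pole, the catalytic subunit of polymerase epsilon, which copies the leading strand, had 7.93, 7.98, 8.12, 7.96 and 7.94 with AdNkx6.1. Its lowest, median and highest Adβgal values were 6.35, 6.85 and 7.19, and its untreated values were 6.12, 6.58, 6.54, 5.86 and 6.34. All AdNkx6.1 arrays of Pole lay above the rest, and they differed among themselves by less than either other group. Its change over Adβgal was 1.22 ± 0.15 (adjusted p = 2.5e-05); over the mean of all 16 arrays Pole stood near the lower quartile of genes (6.99), so its fold is less exact than that of brighter genes. Pole2, an accessory subunit of the same polymerase, was higher by 0.32 ± 0.11 over Adβgal (adjusted p = 0.044).

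Pold2, an accessory subunit of polymerase delta, which copies the lagging strand, was the member that differed between Adβgal and untreated under every alternative tried. Its values were 10.10, 10.00, 10.24, 10.40 and 10.23 with AdNkx6.1, a lowest, median and highest of 9.48, 9.69 and 10.01 with Adβgal, and 9.06, 8.75, 9.09, 8.84 and 8.85 untreated. The Adβgal arrays all lay above the untreated ones, and only Adβgal replicate 5 reached the AdNkx6.1 range. Pold2 was higher by 0.80 ± 0.11 for Adβgal against untreated (adjusted p = 0.00049) and by 0.47 ± 0.11 for AdNkx6.1 against Adβgal (adjusted p = 0.0035). The catalytic subunit gene Pold1 was at 8.75 ± 0.13, 8.39 ± 0.29 and 8.10 ± 0.15 in AdNkx6.1, Adβgal and untreated islets, with an adjusted p of 0.045 against Adβgal that missed the threshold in 18 of 26 alternatives.

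The polymerase alpha and primase complex, which lays the RNA-DNA primers, gave a mixed picture. Prim1, the catalytic primase subunit, rose 1.45-fold over Adβgal (11.45 ± 0.28 against 10.91 ± 0.13, adjusted p = 0.0016), whereas Prim2 differed by 0.05, with a 95% interval of -0.27 to 0.37. Against untreated Prim2 was called only without Adβgal replicate 5 among the single arrays (adjusted p = 0.029, in a range of 0.013 to 0.21 over the alternatives). Pola2 was at 6.81 ± 0.12 with AdNkx6.1 and 6.1 ± 0.65 with Adβgal, a change of 0.71 ± 0.24 (adjusted p = 0.042), and its Adβgal replicates 4 and 5, at 6.76 and 7.07, lay in or above the AdNkx6.1 range. Pola1, the catalytic subunit, was at 8.77 ± 0.14 with AdNkx6.1 and 8.18 ± 0.71 with Adβgal and was not called (adjusted p = 0.1). Adβgal replicate 4 was at 6.75 for Pola1 and the other Adβgal arrays at 8.30 to 8.66, and without it the change of Pola1 was 0.31 with an adjusted p of 0.022, in a range of 0.022 to 0.19 over the alternatives.

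All 5 measured genes of the clamp and its loader had positive changes over Adβgal, and 3 were called. Pcna, the sliding clamp and a common marker of cycling cells, had 13.22, 13.23, 13.11, 13.22 and 13.28 with AdNkx6.1. The lowest, median and highest Adβgal values of Pcna were 12.81, 13.01 and 13.20, and the untreated values were 12.88, 13, 13.04, 12.89 and 12.96. The AdNkx6.1 arrays overlapped Adβgal through replicate 5 of Adβgal and cleared all untreated arrays. Pcna was thus 1.15-fold higher over Adβgal (0.20 ± 0.07, adjusted p = 0.04) and 1.20-fold higher over untreated (adjusted p = 0.012, and 0.097 with each array centred on its median).

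Rfc5, a subunit of the clamp loader that opens and closes the ring, had 10.16, 9.93, 10.00, 10.13 and 10.06 with AdNkx6.1. With Adβgal its lowest, median and highest values were 9.14, 9.42 and 9.70, and the untreated arrays had 9.24, 9.19, 9.28, 9.27 and 9.25. No AdNkx6.1 array of Rfc5 overlapped another group, and the change over Adβgal was 0.63 ± 0.08 (adjusted p = 3.9e-05), with 0.48 ± 0.14 by its other probe set. Rfc2 rose 1.72-fold (adjusted p = 6.3e-05). Rfc3 and Rfc4 were not called over Adβgal, at 0.20 ± 0.08 and 0.18 ± 0.16, and were called over untreated, at 0.48 ± 0.08 and 0.71 ± 0.17. Without Adβgal replicate 4, which was the highest of its group at 11.81, Rfc4 differed from Adβgal by 0.34 (adjusted p = 0.016, in a range of 0.0052 to 0.68 over the alternatives), and without AdNkx6.1 replicate 2 Rfc3 had an adjusted p of 0.039, in a range of 0.021 to 0.19.

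**Figure D3:**
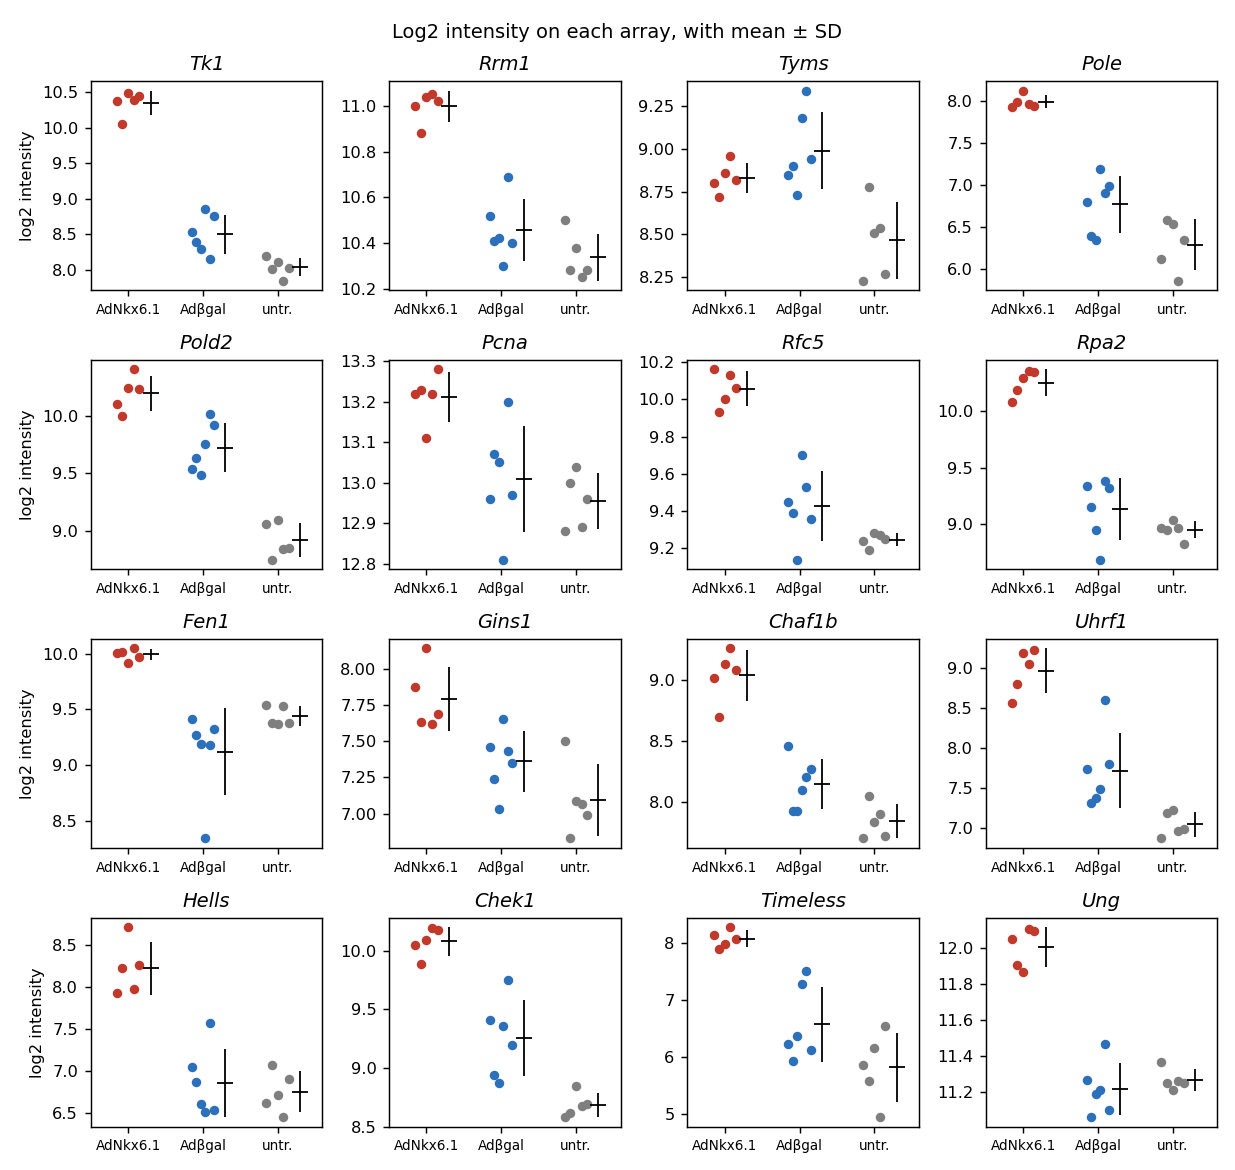
Log2 intensity of 16 genes on each array (points) in AdNkx6.1, Adβgal and untreated islets, with the group mean ± SD (bar beside the points); each panel has its own vertical scale, which does not start at 0. Tk1, Rpa2, Pole and Ung show AdNkx6.1 arrays clear of both other groups, Tyms shows overlap with Adβgal, and Pold2 shows 3 steps.

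Strand processing and single-strand binding were measured by 5 genes, of which Rpa2, Fen1 and Rpa1 rose over Adβgal. Rpa2, a subunit of the protein that coats single-stranded DNA, had 10.08, 10.18, 10.29, 10.35 and 10.34 with AdNkx6.1. Its lowest, median and highest values were 8.69, 9.24 and 9.38 with Adβgal, and untreated it had 8.97, 8.95, 9.04, 8.97 and 8.83. The gap between AdNkx6.1 and every other array exceeded the range within AdNkx6.1, and the change over Adβgal was 1.11 ± 0.11 (adjusted p = 2.1e-06). The subunits of this trimer did not move alike: Rpa1 was higher by 0.55 ± 0.11 (adjusted p = 0.0012), and Rpa3 differed by 0.05 with a 95% interval of -0.15 to 0.25.

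Fen1, the nuclease that trims lagging strand flaps, was at 9.99 ± 0.05 with AdNkx6.1, 9.12 ± 0.39 with Adβgal and 9.44 ± 0.09 untreated. It rose by 0.88 ± 0.14 over Adβgal (adjusted p = 0.00029) and by 0.55 ± 0.15 over untreated (adjusted p = 0.01). Adβgal replicate 4 was at 8.34 for Fen1, below the 9.18 to 9.41 of its group, and without it the change over Adβgal was 0.72. Lig1, the ligase that seals the fragments, was at 10.91 ± 0.09, 10.80 ± 0.23 and 10.36 ± 0.07 in AdNkx6.1, Adβgal and untreated islets. It was higher than untreated with either virus, by 0.55 ± 0.10 with AdNkx6.1 (adjusted p = 0.0006) and by 0.44 ± 0.10 with Adβgal (adjusted p = 0.013), and the viruses differed by 0.11, with a 95% interval of -0.09 to 0.31. The other probe set of Lig1, at 10.85 ± 0.28 with AdNkx6.1 and 10.46 ± 0.39 with Adβgal, differed by 0.39 ± 0.17 (adjusted p = 0.12 when it stands for the gene). With that probe set Lig1 was 0.34 higher for Adβgal over untreated and no longer called (adjusted p = 0.23), nor was it without Adβgal replicates 4, 5 and 6 (adjusted p = 0.11).

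Origin firing was represented by Gins1 alone, a subunit of the complex that joins the helicase when an origin fires. Gins1 had 7.87, 7.63, 8.14, 7.62 and 7.69 with AdNkx6.1, a lowest, median and highest of 7.03, 7.39 and 7.65 with Adβgal, and 7.5, 6.83, 7.09, 7.07 and 6.99 untreated. Adβgal replicate 4 reached into the AdNkx6.1 range, and no untreated array did. The change was 0.43 ± 0.13 over Adβgal (adjusted p = 0.024) and 0.69 ± 0.14 over untreated (adjusted p = 0.0012).

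Of 6 genes that rebuild chromatin and copy DNA methylation behind the fork, Hells, Uhrf1, Chaf1b and Dnmt1 rose over Adβgal. Chaf1b, a subunit of the chromatin assembly factor that loads new histones onto DNA, had 9.02, 8.70, 9.13, 9.26 and 9.08 with AdNkx6.1. The lowest, median and highest of Chaf1b with Adβgal were 7.93, 8.16 and 8.46, and untreated it had 7.71, 8.05, 7.84, 7.90 and 7.72. The AdNkx6.1 arrays did not overlap the others, with a change of 0.89 ± 0.11 over Adβgal (adjusted p = 2.7e-05). Its partner Chaf1a was higher by 0.41 ± 0.15, just short of the threshold (adjusted p = 0.051). Chaf1a was called without Adβgal replicate 1 or 5, at 0.029 and 0.0037, in a range of 0.00066 to 0.12 over the alternatives.

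Uhrf1, which reads hemimethylated DNA and brings in the methyltransferase Dnmt1, had 8.56, 8.80, 9.18, 9.05 and 9.22 with AdNkx6.1. With Adβgal its lowest, median and highest values were 7.31, 7.60 and 8.59, and untreated it had 6.87, 7.19, 7.23, 6.96 and 6.99. The highest Adβgal array of Uhrf1, replicate 5, just exceeded the lowest AdNkx6.1 array, and all Adβgal arrays lay above all untreated arrays. Its change was 1.25 ± 0.19 over Adβgal (adjusted p = 0.00016). Uhrf1 was also higher with Adβgal than untreated, by 0.66 ± 0.19 (adjusted p = 0.049). That second call failed when AdNkx6.1 replicate 2, 3, 4 or 5, Adβgal replicate 1 or 6, or any 1 of the 5 untreated arrays was left out (adjusted p of 0.053 to 0.11), in a range of 0.025 to 0.13 over the alternatives.

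Dnmt1, which restores methylation on the new strand, was at 11.09 ± 0.16 with AdNkx6.1 and 10.67 ± 0.20 with Adβgal, a rise of 1.34-fold (adjusted p = 0.005). Hells, a remodeller needed for DNA methylation, was at 8.22 ± 0.31, 6.86 ± 0.41 and 6.76 ± 0.24 in AdNkx6.1, Adβgal and untreated islets, with no overlap between AdNkx6.1 and Adβgal and an adjusted p of 6e-05. Slbp, which binds the stem-loop of histone mRNAs, was at 9.80 ± 0.42 with AdNkx6.1, 9.39 ± 0.43 with Adβgal and 9.60 ± 0.24 untreated and was not called; its other probe sets, at mean values of 3.28 to 5.38, differed by -0.05 ± 0.09 and 0.04 ± 0.18 between the viruses.

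Of 6 genes of checkpoint, fork protection and repair, Ung, Brca1, Chek1 and Timeless rose over Adβgal. Ung, the glycosylase that removes uracil from DNA, had 12.05, 11.91, 11.87, 12.11 and 12.10 with AdNkx6.1. Its lowest, median and highest Adβgal values were 11.06, 11.20 and 11.47, and the untreated values were 11.37, 11.25, 11.21, 11.26 and 11.25. The Adβgal and untreated arrays of Ung overlapped, and both lay below all AdNkx6.1 arrays. The change was 0.79 ± 0.08 over Adβgal (adjusted p = 1.7e-06) and 0.74 ± 0.08 over untreated (adjusted p = 4.6e-06).

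Chek1, the kinase that holds the cell cycle when forks stall, was at 10.08 ± 0.12, 9.25 ± 0.33 and 8.68 ± 0.10 in AdNkx6.1, Adβgal and untreated islets. All 3 differences of Chek1 were called, at 0.83 ± 0.13 for AdNkx6.1 over Adβgal (adjusted p = 0.00018), 1.40 ± 0.13 over untreated and 0.57 ± 0.13 for Adβgal over untreated (adjusted p = 0.015). Brca1, a recombination repair gene, had 5.28, 5.96, 6.29, 6.16 and 6.23 with AdNkx6.1, against a lowest, median and highest of 4.73, 4.82 and 5.14 with Adβgal and 4.69, 4.85, 4.91, 5.03 and 4.68 untreated. These are dim values, below the lower quartile of all genes (6.99), so the 2.17-fold rise of Brca1 over Adβgal (adjusted p = 4.3e-05) is not exact in size. AdNkx6.1 replicate 1 was the lowest of its group and still exceeded every Adβgal and untreated array.

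Timeless and Tipin encode a pair of proteins that bind each other and steady the fork, yet their probe sets differed. Timeless had 8.13, 7.88, 7.98, 8.27 and 8.06 with AdNkx6.1, a lowest, median and highest of 5.92, 6.30 and 7.5 with Adβgal, and 5.86, 5.57, 6.15, 4.94 and 6.54 untreated. No AdNkx6.1 array overlapped another group, and Adβgal replicates 4 and 5, at 7.27 and 7.5, lay above the other Adβgal arrays. The rise of Timeless over Adβgal was 1.5 ± 0.29 (adjusted p = 0.0014), and 1.89 without Adβgal replicates 4, 5 and 6. Over the mean of all 16 arrays Timeless stood below the lower quartile of genes (6.99), so its folds over Adβgal and untreated are not exact in size. Tipin was higher than with Adβgal by 0.39 ± 0.21 (adjusted p = 0.2), with Adβgal replicate 5 at 7.46 and the others at 8.76 to 8.98. Without that array Tipin differed from Adβgal by 0.15 (adjusted p = 0.18) and from untreated by 0.28 with an adjusted p of 0.013, in a range of 0.01 to 0.55 over the alternatives. Clspn, which helps to activate Chek1, differed by 0.08 between the viruses, with a 95% interval of -0.20 to 0.37. The sign of Clspn turned without Adβgal replicate 4, at -0.05 (adjusted p = 0.71).

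Of the 24 calls over Adβgal, 18 were kept in every alternative that tested the gene; Brca1, Timeless and Pola2 were not tested when dim genes were left out. The other 6 were Dut, given above, and Pcna, Pola2, Pold1, Pole2 and Gins1, which lay near the threshold. Leaving out AdNkx6.1 replicate 1, 2, 4 or 5, Adβgal replicate 1, 3, 4 or 6 or untreated replicate 2 or 5 ended the call of Pcna (adjusted p of 0.051 to 0.1, in a range of 0.0043 to 0.1 over 26 alternatives). For Pola2 the same held of each AdNkx6.1 array, Adβgal replicates 1, 2, 3 and 6 and untreated replicates 1, 2 and 5 (0.051 to 0.093, in a range of 4.4e-05 to 0.093 over 25 alternatives).

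For Pold1 it held of each AdNkx6.1 array, Adβgal replicates 1, 2, 3 and 4 and untreated replicates 1, 2, 4 and 5 (0.051 to 0.11, in a range of 0.00072 to 0.11). For Pole2 it held of AdNkx6.1 replicates 3, 4 and 5, Adβgal replicates 1, 2, 3 and 5 and untreated replicates 1, 2, 3 and 4 (0.052 to 0.13, in a range of 0.015 to 0.13). For Gins1 it held of AdNkx6.1 replicates 1 and 3 and Adβgal replicate 3 (0.052 to 0.068, in a range of 0.0045 to 0.068). With the alternatives that kept all arrays or left out 3 counted too, the call ended in 15 of 26 for Pcna, 15 of 25 for Pola2, 18 of 26 for Pold1, 17 of 26 for Pole2 and 4 of 26 for Gins1. With Adβgal against untreated, 4 members short of the threshold were called when 1 array was left out. Rfc3 was called without AdNkx6.1 replicate 2, Adβgal replicate 2 or 3 or untreated replicate 1 (0.037 to 0.047, in a range of 0.037 to 0.2). Rfc4 was called without Adβgal replicate 2, 3 or 4 (0.033 to 0.048, in a range of 0.033 to 0.13), and Pole without Adβgal replicate 2 or 3 (0.03 and 0.032, in a range of 0.03 to 0.41). Chaf1a was called without Adβgal replicate 4 (0.045, in a range of 0.045 to 0.25).

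The spread of the members was not equal between groups. Their median SD was 0.12 with AdNkx6.1, 0.27 with Adβgal and 0.13 untreated, beside 0.15, 0.23 and 0.12 for all genes. With Adβgal 14 members had an SD above 0.3, against 3 with AdNkx6.1 and 1 untreated. Adβgal replicate 5 held the highest Adβgal value of 19 of 35 members, and replicate 3 the lowest of 12. The mean of the 35 members, each set to 0 at its own mean over the 16 arrays, was 0.42, 0.40, 0.54, 0.53 and 0.53 on the AdNkx6.1 arrays. With Adβgal it was -0.12, -0.21, -0.27, -0.13, 0.10 and -0.13, and untreated it was -0.34, -0.30, -0.29, -0.39 and -0.33. The 3 groups did not overlap in this mean, and the Adβgal group spanned the widest range.

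Markers of other cell types were summed in the same way, and counted for AdNkx6.1 against Adβgal, where 16.6% of all genes were higher and 8.48% lower. The acinar mean ranged from -1.15 to 0.31 with AdNkx6.1, from -0.99 to 1.54 with Adβgal and from -0.68 to 0.18 untreated, and 0 of 19 acinar markers were higher and 3 lower with AdNkx6.1 than with Adβgal. The macrophage and leukocyte mean ranged from -0.40 to 0.10 with AdNkx6.1, from -0.27 to 0.90 with Adβgal and from -0.18 to 0.04 untreated, with 1 of 24 markers higher and 1 lower. The endothelial mean ranged from -0.53 to 0.45 with AdNkx6.1, -1.13 to 1.05 with Adβgal and -0.39 to -0.15 untreated, with 0 of 13 higher and 1 lower. The stellate and fibroblast mean ranged from -0.11 to 0.06 with AdNkx6.1, -0.41 to 0.20 with Adβgal and -0.16 to 0.09 untreated, with 0 of 16 higher and 2 lower.

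Duct markers were 4 of 10 higher and 0 lower. Their mean was 0.04 to 0.28 (median 0.24) with AdNkx6.1, -0.37 to 0.26 (median 0.065) with Adβgal and -0.25 to -0.10 (median -0.21) untreated. The medians had the same order of groups as the members, but the AdNkx6.1 and Adβgal ranges overlapped. Muc1 rose 1.85-fold, Krt8 1.49-fold, Krt18 1.44-fold and Krt7 1.27-fold. The other 6 were not called. Of these, Cldn4, Spp1 and Epcam differed by 0.34, 0.27 and 0.12, and Krt19, Tff2 and Cftr by -0.01, -0.54 and -0.57. The part of duct cells in the member values was not tested. Of 11 islet endocrine markers 0 were higher and 3 lower (Nkx6-1, Pdx1 and Ppy), with a mean of -0.21 to -0.08 with AdNkx6.1, -0.05 to 0.04 with Adβgal and 0.08 to 0.22 untreated. For AdNkx6.1 against untreated, 0 of the 11 islet endocrine markers were higher and 7 lower, and 5 of the 10 duct markers were higher and 0 lower. Among 24 macrophage and leukocyte markers 1 was higher and 5 lower, and among 19 acinar markers 0 were higher and 3 lower. In that comparison 16.9% of all genes were higher and 13.8% lower. No marker intensity was 0 on any array. Adβgal replicate 5 combined the highest member mean of its group with an acinar mean of 1.0, a leukocyte mean of 0.63 and the highest endothelial mean, 1.05; the part of these cells in the member values was not tested.

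**Figure D4:**
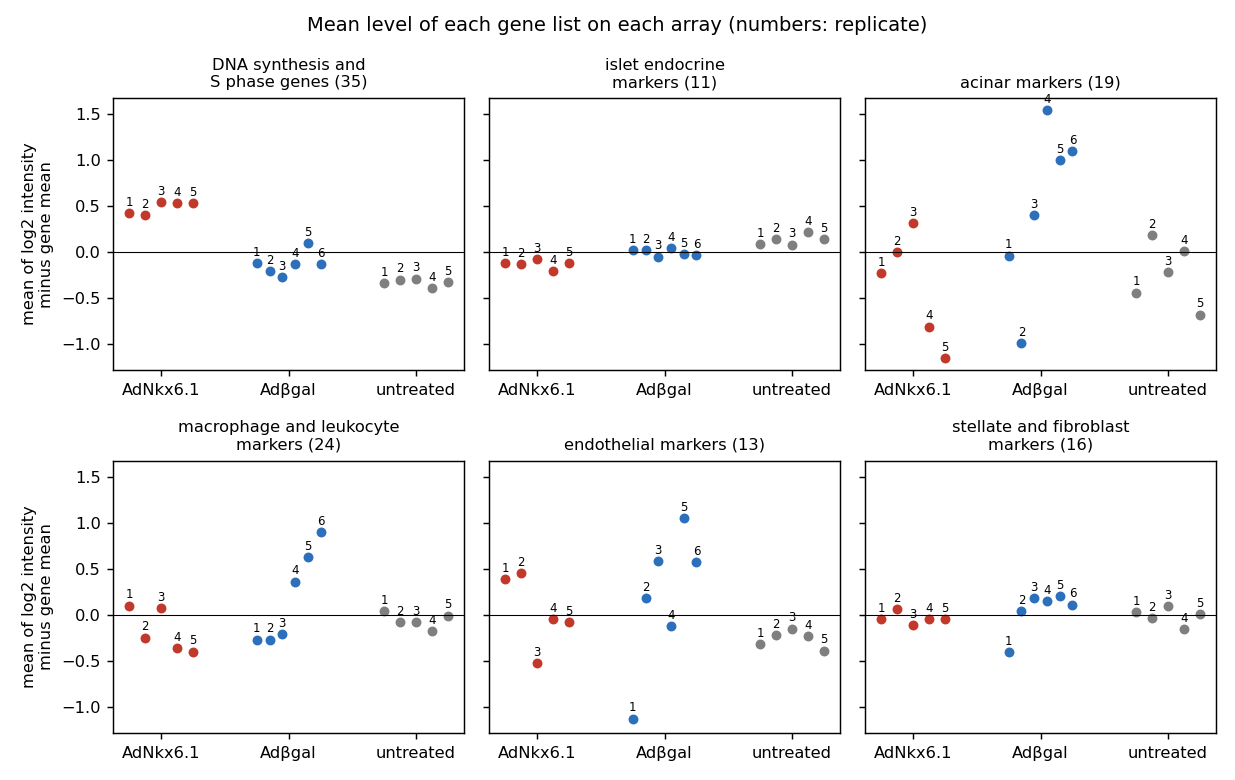
Mean log2 intensity of each gene list on each array (points, numbered by replicate) in AdNkx6.1, Adβgal and untreated islets, each gene set to 0 at its mean over 16 arrays. The DNA synthesis genes form 3 levels, 0.40 to 0.54 with AdNkx6.1, -0.27 to 0.10 with Adβgal and -0.39 to -0.29 untreated. Islet endocrine markers also form 3 levels, in the reverse order, -0.21 to -0.08, -0.05 to 0.04 and 0.08 to 0.22. Acinar, leukocyte and endothelial markers spread widely within Adβgal. Duct markers are not shown.

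Other genes of the same processes, 69 in lists drawn up by function with earlier results of these data known, were also examined. Of 56 measured, 18 were higher and 3 lower with AdNkx6.1 than with Adβgal, where 16.6% of all genes were higher and 8.48% lower. Their median change was 0.20, and the difference between this list and the 35 members was not tested. Against untreated 30 were higher and 3 lower, beside 16.9% and 13.8% of all genes. For Adβgal against untreated 5 were higher and 1 lower, beside 2.84% and 4.17% of all genes. Asf1b, a histone chaperone that feeds the chromatin assembly factor, rose 2.39-fold over Adβgal, and Esco2, which links cohesin to replication, rose 2.27-fold. The replisome genes Recql4 (1.73-fold) and Donson (1.51-fold), the phosphatase gene Cdc25a (1.57-fold), the histone acetyltransferase gene Hat1 (1.47-fold), Fancd2 (1.46-fold) and Rnaseh2a (1.35-fold) also rose.

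Among those 56, the nucleotide supply genes had 1 of 10 higher and 1 lower with AdNkx6.1 than with Adβgal, beside 16.6% and 8.48% of all genes. Samhd1, which breaks down deoxynucleotides, was 1.31-fold higher (adjusted p = 0.026), and Shmt1, which supplies 1-carbon units for thymidylate synthesis, was 1.36-fold lower with AdNkx6.1 than with Adβgal, at 9.16 against 9.60 (adjusted p = 0.0017). Dscc1, part of an alternative clamp loader, was not called between the viruses (0.41, adjusted p = 0.12) and was higher by 1.04 for Adβgal against untreated (adjusted p = 0.0042).

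Promoter sequence was examined because most members were called higher with AdNkx6.1 than with Adβgal. RefSeq's table (build GRCr8) gave a window of 250 bases before to 50 after an annotated start for 34 of the 35 members, matched by gene number, with no entry for Rpa3. The E2F letters searched were TTTCCCGC, TTTCGCGC, TTTGCCGC and TTTGGCGC on both strands. They occurred in 16 of 34 member windows (47.1%). Of 11700 windows of genes tested on the array, members included, 3.58% held them, and of all 27457 windows 2.2% did. The members are S phase genes, and many of these are switched on through E2F, so their share describes the list, not the treatment. The median GC content of the windows was 59.7% for the members and 60% for the genes tested. CCAAT occurred in 50% of member windows against 37.3% of those of genes tested, and TTTGAA, the letters of the cell cycle element called CHR, in 8.82% against 12.4%. None of the 18 E2F matches in the members shared a base with either, and 16 lay within 40 bases of the start on either side.

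The 6 members with an E2F match wholly inside the 60 bases before the start are shown 5′ to 3′ along the gene, with the match in capitals (on the opposite strand it reads as its reverse complement). For 5 of these 6, all but Gins1, RefSeq's gene record begins 24 to 744 bases further upstream, so the bases shown may lie within another transcript of the gene.
Ung, chr12:48154046-48154105, minus strand: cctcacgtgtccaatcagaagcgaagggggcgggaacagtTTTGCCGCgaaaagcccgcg
Hells, chr1:246114069-246114128, plus strand: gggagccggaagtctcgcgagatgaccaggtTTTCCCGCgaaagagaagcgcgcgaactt
Chek1, chr8:44629844-44629903, minus strand: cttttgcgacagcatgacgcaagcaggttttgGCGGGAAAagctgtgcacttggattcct
Gins1, chr3:160184860-160184919, plus strand: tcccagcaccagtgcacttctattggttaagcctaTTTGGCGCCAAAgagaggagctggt
Tipin, chr8:73676031-73676090, plus strand: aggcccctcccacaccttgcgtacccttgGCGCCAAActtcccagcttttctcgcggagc
Tyms, chr9:120776084-120776143, minus strand: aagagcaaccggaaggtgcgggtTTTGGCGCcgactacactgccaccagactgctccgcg

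In Gins1 the 2 overlapping matches, 1 on each strand, form a palindrome. Ung, Hells, Chek1 and Gins1 rose with AdNkx6.1 against Adβgal, and Tipin and Tyms were not called, so these letters stood before members of both kinds. Over all member windows, 9 of 16 with E2F letters and 15 of 18 without them were called higher, with median changes of 0.43 and 0.55. Among the other genes tested, 21.6% of 403 with the letters and 16.4% of 11263 without were called higher, and 8.44% and 8.57% lower. A match is a description of letters, not of binding, and windows without a match say only that these letters are not in them.

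**Figure D5:**
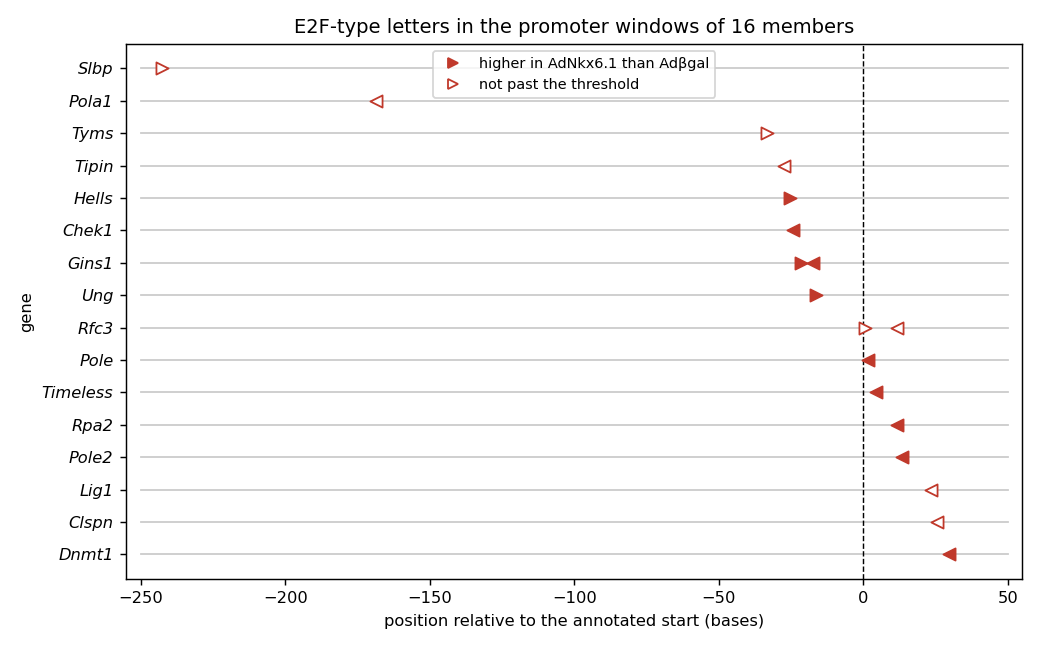
Position of E2F letters in the promoter windows of the 16 members that hold them (rows), in bases from the annotated start (dashed line at 0); arrowheads point along the strand that reads TTT first, and filled ones mark members higher with AdNkx6.1 than with Adβgal. Of 18 matches, 16 lie within 40 bases of the start, and 9 of the 16 genes are filled.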

How the data were processed

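Each deposited value is the intensity of a probe set, not in log units (6.25 to 35765, no zeros), calculated by the authors with RMA per the submitters' processing notes; its version and the return to a linear scale are not given in the sources used here. Log2 values had been planned for, and these were calculated from the deposited intensity without a pseudocount, and detection calls were not used. Of 31099 probe sets 57 controls were left out, and 20826 had 1 gene symbol, 436 several and 9780 none; 20758 gene numbers matched RefSeq, which changed 0 symbols. Each gene took its probe set with the highest mean.

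The 3 groups entered 1 fit in limma 3.58.1 under R 4.3.3 (lmFit, contrasts.fit, eBayes), tested on simulated data. Tables and figures used pandas 2.3.3 and matplotlib 3.10.9 in Python 3.11.15. The number of arrays limits the precision. The members, roles and lists were chosen with earlier results of these data known. Every member may be named. Values of each array are given for the members with the 4 smallest p-values between the viruses, the first of each role and Pcna; those of Tyms, Pold2, Uhrf1, Brca1 and Timeless were added after their values were seen. Of each list of other genes the 2 with the smallest p are named, except 1 gene that is not reported here. Same-numbered arrays did not pair: their deviations from group means correlated at -0.39 to 0.25.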

Additional observations from a re-analysis of the deposited data

Results flagged for a closer look

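In 105 groups of values (35 members in 3 groups of arrays) 10 single arrays lay far from the rest of their group by Dixon's criterion, which chance alone passes in about 1 of 20 groups. Adβgal replicate 4 accounts for 4 of them: it was low for Pola1 (6.75, others 8.30 to 8.66), Fen1 (8.34, others 9.18 to 9.41) and Clspn (8.22, others 8.84 to 9.10) and high for Rfc4 (11.81, others 10.64 to 11.07). Adβgal replicate 5 was low for Tipin (7.46, others 8.76 to 8.98). With AdNkx6.1, replicate 2 was low for Tk1 (10.05, others 10.37 to 10.49), replicate 3 high for Pole (8.12, others 7.93 to 7.98) and replicate 5 high for Rpa1 (10.51, others 10.27 to 10.33). Untreated replicate 5 was high for Pole2 (8.77, others 8.48 to 8.53) and untreated replicate 4 low for Tipin (8.53, others 8.77 to 8.85).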

How the results depend on the processing

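Members lower numbered 0 in each comparison under every alternative. With 1 array left out, 19 to 24 members were higher for AdNkx6.1 against Adβgal (median change 0.49 to 0.56), 28 to 31 for AdNkx6.1 against untreated (0.65 to 0.73) and 4 to 9 for Adβgal against untreated (0.16 to 0.23). Under the other alternatives the first count ran from 20 to 29 (array weights) and the second from 26 to 31. The 20 came with arrays centred on their median, with the most variable probe set of each gene, and with only the 2 groups compared in the fit. The 26 came with dim genes left out, where only 32 members were tested and no call among them changed. For Adβgal against untreated the count of 6 became 2 with the replicate block, 1 without Adβgal replicates 4, 5 and 6 together and 3 with only the 2 groups in the fit; the cause was not tested. The block gave 21 and 28 members higher in the AdNkx6.1 comparisons, and the labels do not say whether the numbers pair the arrays. Centring arrays on their median moved the median of all genes to -0.10 for Adβgal and -0.09 for AdNkx6.1 against untreated, and that of the members for AdNkx6.1 against untreated to 0.61. Dut turned to -0.13 with the mean of its probe sets and to -0.57 with its more variable one. Folds of dim probe sets are not exact in size, and no detection call was used.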
